A study of Homo sapiens with 8 samples.

Results

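The genes described here are MBOAT1 and the other lysophospholipid acyltransferases listed with it, enzymes that attach a fatty acyl chain to a lysophospholipid. The list holds 10 genes, and it was chosen by gene symbol around MBOAT1, which itself was chosen on its PTK7 minus control values in these arrays. A gene counted as measured where the array annotation gave it a probe set with a single gene symbol, and this held for 7 of the 10, out of 18404 genes measured this way. They are MBOAT1 (probe set 8124166), MBOAT7 (8039166), LPCAT1 (8110841), LPCAT2 (7995697), LPCAT3 (7960730), LPCAT4 (7987230) and AGPAT2 (8165258), each with a single probe set. AGPAT1 had only a probe set shared with another symbol, and AGPAT1, MBOAT2 and AGPAT3 were not analysed here.

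Membrane phospholipids are made in the Kennedy and CDP-diacylglycerol pathways and are then remodelled in the Lands cycle, in which phospholipases A release an acyl chain and lysophospholipid acyltransferases put another in its place. The enzymes come from the MBOAT family (MBOAT1, MBOAT7 and LPCAT3) and the AGPAT family (LPCAT1, LPCAT2, LPCAT4 and AGPAT2), and their preferences for head group and acyl chain shape membrane composition. In the lung the cycle is known for producing the disaturated phosphatidylcholine of surfactant.

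The study measured total RNA of the human lung cancer lines NCI-H1299 and NCI-H2009, written H1299 and H2009 below, on 8 Affymetrix arrays, to ask what changes when PTK7, a receptor tyrosine kinase-like protein without catalytic activity, is knocked down. In each line 2 groups were formed, cells with a control hairpin against GFP or luciferase (LUC) and cells with a hairpin against PTK7 (PTK7-1 or PTK7-2), with 1 array per hairpin and line. All 4 groups had lentiviral infection for 2 days and puromycin for 2 days, with RNA taken at day 4, so the controls carry a vector, a hairpin and the selection too. A group's 2 arrays differ in hairpin, and nothing in the labels says that cultures were repeated, so p-values measure only the spread between these arrays, and each line stands for itself.

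Array medians lay between 5.31 and 5.41 on the log2 scale, and Pearson r between the 2 arrays of a group, across genes, ran from 0.981 to 0.997. Of the epithelial markers EPCAM, CDH1, KRT8, KRT18 and KRT19, 5 of 5 lay above the median gene in the H2009 controls and 2 of 5 (KRT8 and KRT18) in the H1299 controls. Of the lung lineage markers NKX2-1, NAPSA, SFTPB and SFTPC, NKX2-1 alone was above it in H2009 and 0 of 4 in H1299. Leukocyte and endothelial markers lay below it in all 4 groups, at 0 of 4 measured each, and of the fibroblast markers COL1A1 alone lay above it, in H2009. Of the mesenchymal markers VIM, CDH2, FN1 and ZEB1, 4 of 4 lay above it in H1299, 2 of 4 in the H2009 controls and 3 of 4 with PTK7 hairpins in H2009. In RNA from bulk cultures, fewer cells that express a gene and less RNA per cell cannot be told apart.

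The target of the hairpins, PTK7, read lower in both lines without passing the test over all genes. The PTK7 probe set had 5.73 (GFP) and 6.03 (LUC) under control hairpins and 5.63 (PTK7-1) and 5.53 (PTK7-2) under PTK7 hairpins in H1299, and 6.64, 6.86, 5.63 and 5.94 in H2009. Both PTK7 arrays lay below both control arrays in each line, by a narrow gap of 0.11 in H1299 and by 0.70 in H2009. The mean signal left was 81.0% of control in H1299 (log2 difference -0.30 with a standard error of 0.17, limma adjusted p = 0.804), where GFP and LUC also lay 0.30 apart, and 51.4% in H2009 (-0.96 with a standard error of 0.17, limma adjusted p = 0.222). Averaged over the lines the limma adjusted p was 0.190, and 0.0551 in the blocked fit. The PTK7 control mean lay above 45.5% of genes in H1299 and above 55.0% in H2009, and the processing compresses differences of dim genes. The percentages left are thus shares of a reading and not a measured degree of knockdown.

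MBOAT1, which transfers mainly oleoyl chains to lysophosphatidylethanolamine and lysophosphatidylserine, was lower with both PTK7 hairpins in both lines. In H1299 the log2 value was 8.86 (GFP) and 8.99 (LUC) under control hairpins and 7.43 (PTK7-1) and 7.40 (PTK7-2) under PTK7 hairpins. In H2009 it was 9.17 (GFP) and 9.64 (LUC) under control hairpins and 8.15 (PTK7-1) and 7.88 (PTK7-2) under PTK7 hairpins. The PTK7 arrays were the low ones in each line and no groups overlapped: the highest PTK7 array lay 1.43 below the lowest control in H1299 and 1.02 below it in H2009.

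The group means for MBOAT1 were 8.93 ± 0.09 (SD, n = 2) and 7.42 ± 0.02 (SD, n = 2) in the H1299 control and PTK7 arrays, and 9.41 ± 0.33 (SD, n = 2) and 8.01 ± 0.20 (SD, n = 2) in H2009. The order of the 4 groups was thus H2009 control, H1299 control, H2009 PTK7 and H1299 PTK7, from high to low, and neighbouring groups did not overlap. The log2 difference, PTK7 minus control, was -1.51 ± 0.18 (standard error of the fit, as are all ± values below) in H1299, where 35.1% of the control signal was left. In H2009 it was -1.39 ± 0.18, with 38.1% left, and averaged over the lines it was -1.45 ± 0.13, a 2.73-fold lower signal. Because MBOAT1 was chosen on this contrast, these values are a description without a test. Ordered by the size of the averaged difference MBOAT1 was number 6 of the 18404 genes, and 17 in H1299 and 33 in H2009; 4.53% of all genes had both PTK7 arrays below both control arrays in both lines.

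For MBOAT1 the 2 PTK7 hairpins lay closer to each other than to any control. Against the control mean of the line, PTK7-1 stood at -1.49 and PTK7-2 at -1.52 in H1299, and they stood at -1.26 and -1.53 in H2009; both share the controls of the line. PTK7-1 minus PTK7-2 was 0.15 ± 0.15 over the lines (95% interval -0.19 to 0.50, limma adjusted p = 0.720). Compared between the lines, the H1299 minus H2009 difference in knockdown was 0.66 ± 0.24 for PTK7 (95% interval 0.10 to 1.22, limma adjusted p = 0.922). For MBOAT1 it was -0.11 ± 0.26 (95% interval -0.72 to 0.49, limma adjusted p = 0.973). Neither passed over all genes, though the PTK7 interval, which is not adjusted for the number of genes, held only positive values. The PTK7 readings lie near or below the median gene.

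**Figure D1:**
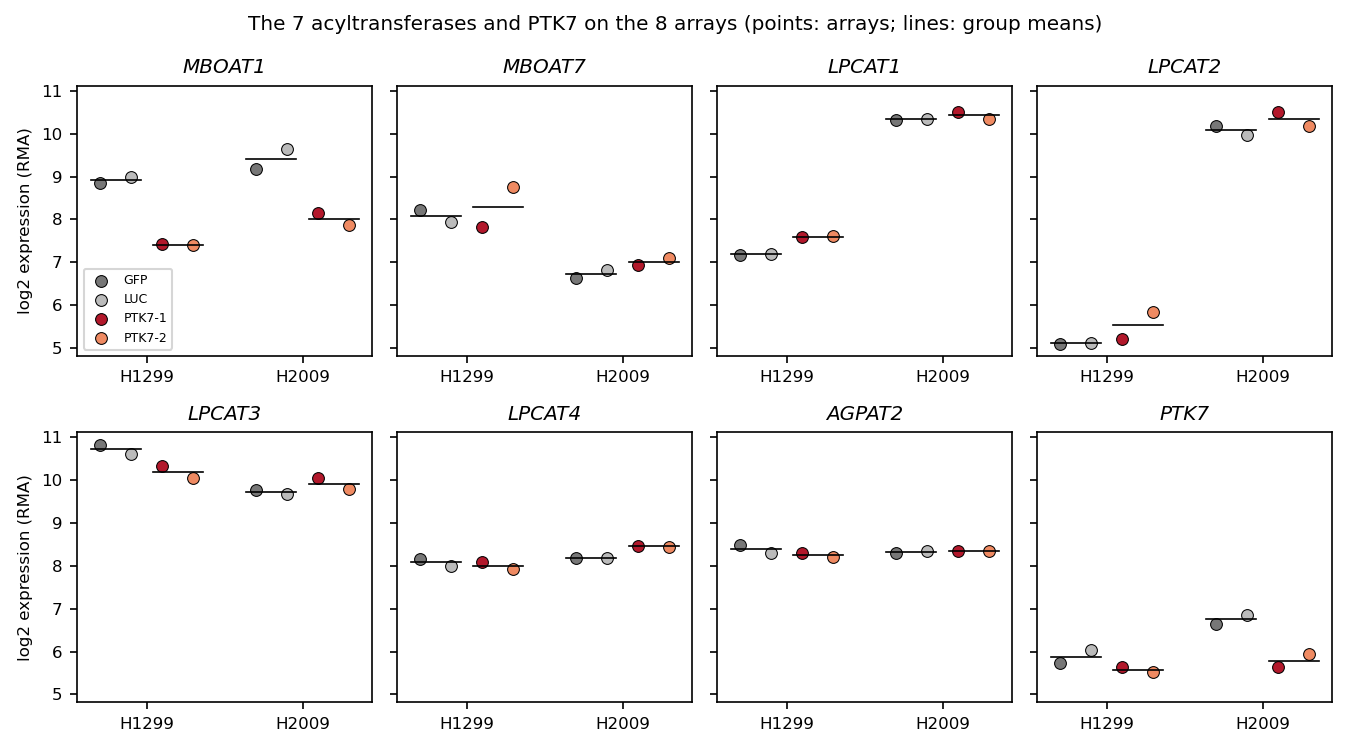
Log2 expression (vertical axis) of the 7 acyltransferases and PTK7 on each of the 8 arrays, by line, with a point per array coloured by hairpin and a line at the mean of each group of 2. MBOAT1 sits at 7.40 to 8.15 in the 4 PTK7 arrays and at 8.86 to 9.64 in the 4 control arrays, while LPCAT1 and LPCAT2 separate the lines.

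The control hairpins give the background for such differences. GFP minus LUC for MBOAT1 was -0.13 in H1299 and -0.47 in H2009, or -0.30 ± 0.15 over the lines (limma adjusted p = 1). In that comparison 0 of the 7 acyltransferases passed an adjusted p under 0.05 and 0 had an unadjusted p under 0.05, beside 0% of all genes called and 672 at the unadjusted level.

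No PTK7 minus control difference of the other 6 acyltransferases passed the test. Averaged over the lines, 0 of the 6 passed the limma threshold (Benjamini-Hochberg adjusted p under 0.05) and 1, LPCAT1, had an unadjusted p under 0.05. Of all genes 0% passed and 1819 had an unadjusted p under 0.05. With the hairpin as a replicate block 0.810% of all genes passed (149 genes), and 0 of the 6, with 0.250 as their lowest adjusted p. The median averaged difference of the 7 genes was 0.10, beside 0.02 over all genes. Within H1299, 0 of the 6 passed and 2 had an unadjusted p under 0.05, while 0.00543% of all genes passed (1 gene; 4 with the block) and 7.48% had an unadjusted p under 0.05. Within H2009, 0 of the 6 passed and 0 had an unadjusted p under 0.05, while 0% of all genes passed (0 genes also with the block, and 1468 unadjusted).

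LPCAT3, the MBOAT enzyme that places polyunsaturated chains into phosphatidylcholine and phosphatidylethanolamine and a known target of the LXR receptors, read lower under PTK7 hairpins in H1299 and higher in H2009. In H1299 it read 10.83 (GFP) and 10.61 (LUC) under control hairpins and 10.33 (PTK7-1) and 10.06 (PTK7-2) under PTK7 hairpins. In H2009 it read 9.77, 9.67, 10.05 and 9.79 in the same order. Both PTK7 arrays were the low ones in H1299, 0.27 below the nearest control, and the high ones in H2009, where the gap was only 0.02.

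The LPCAT3 difference was -0.52 ± 0.16 in H1299 (limma adjusted p = 0.519) and 0.20 ± 0.16 in H2009 (limma adjusted p = 0.777). The difference between the lines was -0.72 ± 0.23 (95% interval -1.25 to -0.19, limma adjusted p = 0.880, or 0.487 in the blocked fit). It did not pass over all genes. Groups separated in opposite directions in the lines were found for 5.66% of all genes. Of the 7 acyltransferases 0 passed for the difference between the lines and 1, LPCAT3, had an unadjusted p under 0.05, beside 0% of all genes called (1 gene with the block) and 951 unadjusted.

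LPCAT1, the AGPAT-family enzyme that makes surfactant phosphatidylcholine in alveolar type II cells, was somewhat higher in the PTK7 arrays of H1299. The values were 7.17 (GFP) and 7.20 (LUC) under control hairpins and 7.59 (PTK7-1) and 7.61 (PTK7-2) under PTK7 hairpins, so that the groups lay 0.38 apart. In H2009 they were 10.32, 10.35, 10.51 and 10.35, with PTK7-2 level with LUC. The difference was 0.41 ± 0.12 in H1299 (limma adjusted p = 0.460), 0.10 ± 0.12 in H2009 (0.26 ± 0.08 averaged, limma adjusted p = 0.364), and none of these passed over all genes.

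LPCAT2 makes phosphatidylcholine too and also acetylates lyso-PAF to platelet-activating factor. In H1299 it read 5.10 (GFP) and 5.11 (LUC) under control hairpins and 5.22 (PTK7-1) and 5.83 (PTK7-2) under PTK7 hairpins, and in H2009 10.19, 9.98, 10.51 and 10.18. PTK7-2 was the high array in H1299 and PTK7-1 in H2009, where the groups overlapped. The averaged difference was 0.34 ± 0.16 (limma adjusted p = 0.542; 0.19 without PTK7-2 in H1299), and the larger excess came from a different hairpin in each line.

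MBOAT7, which places arachidonoyl chains on lysophosphatidylinositol, had the widest gap between the PTK7 hairpins among the 7 in H1299, but not in H2009. In H1299 it read 8.22 (GFP) and 7.95 (LUC) under control hairpins and 7.82 (PTK7-1) and 8.75 (PTK7-2) under PTK7 hairpins, so that PTK7-1 was the lowest and PTK7-2 the highest array. In H2009 it read 6.64, 6.81, 6.93 and 7.09, with both PTK7 arrays above the controls by 0.13. PTK7-1 minus PTK7-2 was -0.94 in H1299 and -0.16 in H2009, or -0.55 ± 0.20 over the lines (limma adjusted p = 0.204). In that comparison 0 of the 7 acyltransferases passed and 1, MBOAT7, had an unadjusted p under 0.05, while 3.73% of all genes passed (686 genes) and 18.3% had an unadjusted p under 0.05. The averaged PTK7 minus control difference of MBOAT7 was 0.25 ± 0.20 (limma adjusted p = 0.754), and in H1299 it was 0.67 without the PTK7-1 array and -0.27 without the PTK7-2 array.

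LPCAT4, an AGPAT-family enzyme acting on lysophosphatidylethanolamine and lysophosphatidylcholine, read 8.16, 8.01, 8.09 and 7.92 in H1299 with GFP, LUC, PTK7-1 and PTK7-2, and 8.18, 8.18, 8.46 and 8.45 in H2009. The groups overlapped in H1299, and in H2009 the PTK7 arrays lay 0.26 above the controls, with a difference of 0.27 ± 0.12 (limma adjusted p = 0.646). AGPAT2 converts lysophosphatidic acid to phosphatidic acid in triglyceride and phospholipid synthesis and is mutated in a congenital lipodystrophy. It read 8.49, 8.30, 8.30 and 8.22 in H1299 and 8.30, 8.34, 8.36 and 8.36 in H2009, with an averaged difference of -0.05 ± 0.08 (95% interval -0.25 to 0.15, limma adjusted p = 0.892).

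Counted by separation of the arrays, 3 of the 6 genes other than MBOAT1 had both PTK7 arrays beyond both controls in H1299 (LPCAT1 and LPCAT2 above, LPCAT3 below), where 31.7% of all genes did. In H2009 it was 5 of the 6, all above (MBOAT7, LPCAT1, LPCAT3, LPCAT4 and AGPAT2), where 44.9% of all genes did. In H2009 some identity markers also read differently. NKX2-1 was at 8.36 and 7.90 in the controls and at 7.70 and 6.89 in the PTK7 arrays. CDH2 was at 6.48 and 5.83 and at 6.99 and 7.04. Of the other epithelial, lung lineage and mesenchymal markers, NAPSA read lower too, and VIM, ZEB1, CDH1 and SFTPC read higher. EPCAM, the keratins, SFTPB and FN1 overlapped. Some of these separations were narrow, as for VIM with 9.21 (GFP) and 9.24 (PTK7-1). In H1299 CDH2 read higher too, at 9.22 and 9.08 in the controls and at 9.41 and 9.51 in the PTK7 arrays. So did ZEB1, at 8.38 and 8.44 and at 8.79 and 8.47, and the other markers of these lists overlapped in H1299. The part of these markers in the acyltransferase values was not tested. The gaps in H2009 were 0.02 or less for LPCAT1, LPCAT3 and AGPAT2, so these separations are small beside the standard errors of 0.12 to 0.16.

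**Figure D2:**
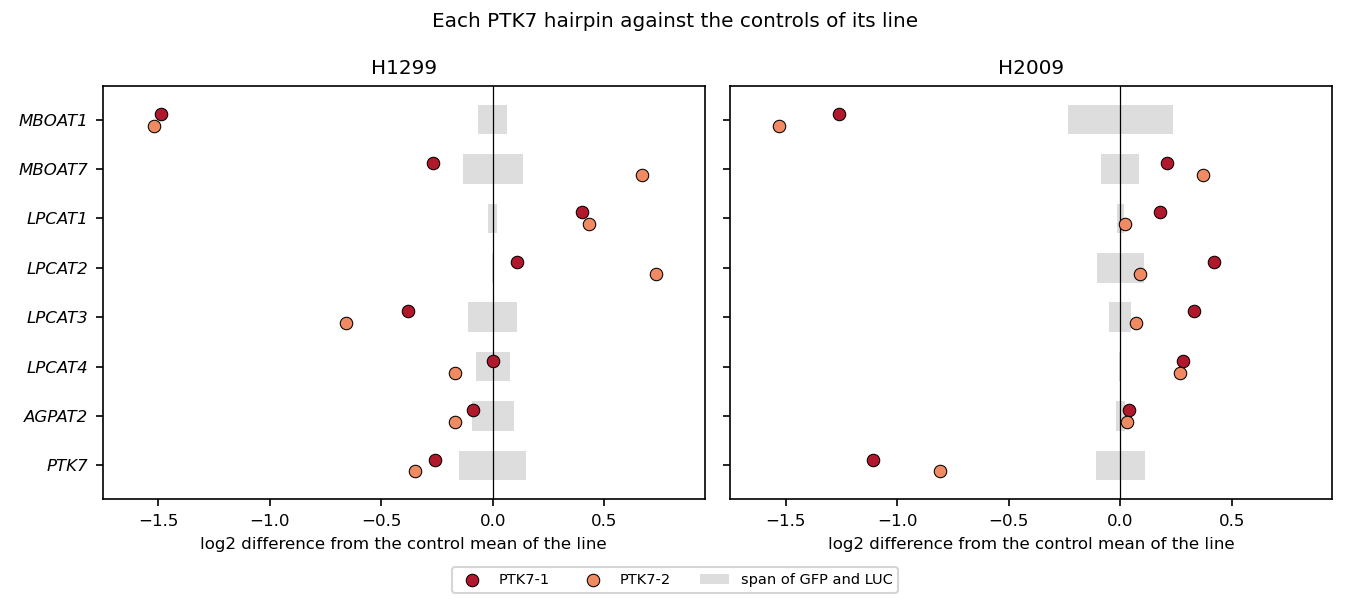
Log2 difference of each PTK7 hairpin from the control mean of its line (horizontal axis) for the 7 acyltransferases and PTK7, with a grey bar for the span of the 2 control arrays. MBOAT1 lies between -1.53 and -1.26 for both hairpins in both lines, and every other acyltransferase lies between -0.66 and 0.73.

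The comparison of the 2 lines under control hairpins did not choose MBOAT1, and 4 of the 7 genes passed the limma threshold in it, beside 24.8% of all genes. LPCAT1 and LPCAT2 were higher in H2009, as were 12.3% of all genes, and MBOAT7 and LPCAT3 were higher in H1299, as were 12.5%. The median H1299 minus H2009 difference of the 7 was -0.09, beside 0.06 over all genes.

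LPCAT2 had the widest gap. Its control arrays read 5.10 and 5.11 in H1299 and 10.19 and 9.98 in H2009, a difference of readings of -4.98 ± 0.22 or 31.5-fold (limma adjusted p = 1.37e-05). The H1299 control mean lay above 36.0% of genes and the H2009 control mean above 95.2%, and no detection calls were used, so whether H1299 expresses LPCAT2 at all was not tested. LPCAT1 followed with -3.15 ± 0.12, or 8.88-fold higher in H2009 (limma adjusted p = 6.06e-06). Both gaps held with each of the 4 hairpins, from -5.28 to -4.34 for LPCAT2 and from -3.15 to -2.74 for LPCAT1.

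LPCAT3 was 2.00-fold higher in H1299 under control hairpins, with a difference of 1.00 ± 0.16 (limma adjusted p = 0.00414). The gap between the lines was 1.06 (GFP) and 0.94 (LUC) with control hairpins, and 0.29 and 0.26 with the PTK7 hairpins. MBOAT7 was 2.56-fold higher in H1299, at 1.36 ± 0.29 (limma adjusted p = 0.0130), with gaps of 1.58, 1.14, 0.88 and 1.66 over the same hairpins. That call was lost without the H1299 GFP array (1.22, limma adjusted p = 0.0832), the H2009 GFP array (1.27, 0.0874) or the H2009 LUC array (1.44, 0.0641).

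MBOAT1 was lower in H1299 with all 4 hairpins, at -0.31 (GFP), -0.65 (LUC), -0.72 (PTK7-1) and -0.47 (PTK7-2). Its control difference of -0.48 ± 0.18 did not pass (limma adjusted p = 0.105, or 0.0504 in the blocked fit), and it was -0.72 without the H2009 GFP array and -0.25 without the H2009 LUC array (limma adjusted p = 0.0612 and 0.519). LPCAT4 and AGPAT2 differed by -0.09 ± 0.12 (95% interval -0.38 to 0.19, limma adjusted p = 0.656) and 0.07 ± 0.12 (95% interval -0.21 to 0.36, limma adjusted p = 0.728). The lines also differ in epithelial markers, with EPCAM at 3.46 and 3.32 in the H1299 controls and at 11.18 and 11.30 in the H2009 controls, and the part of this in the acyltransferase differences was not tested.

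**Figure D3:**
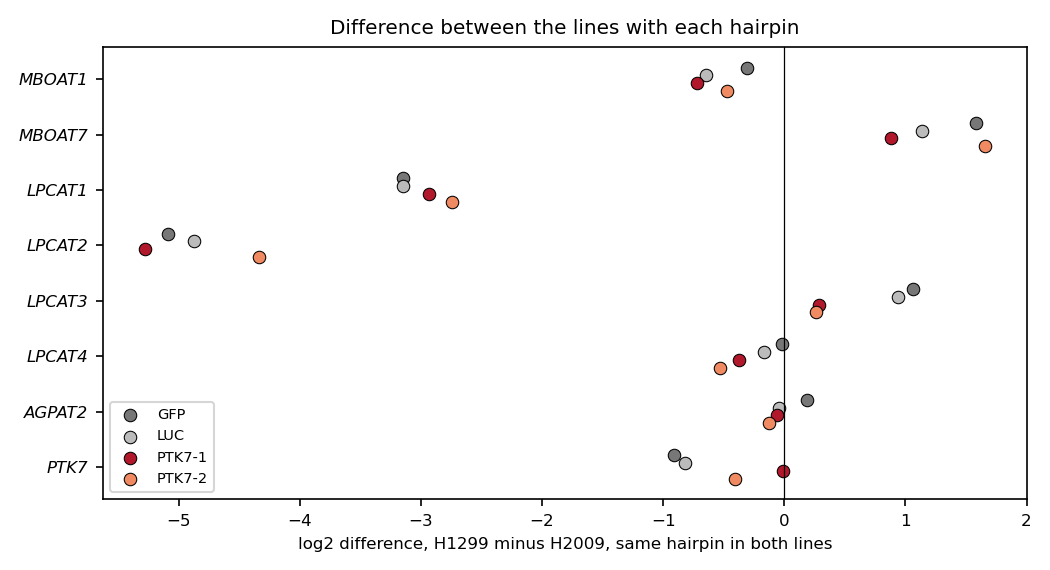
Log2 difference between the lines, H1299 minus H2009 (horizontal axis), for each acyltransferase and PTK7, with a point for each of the 4 hairpins. LPCAT2 and LPCAT1 lie at or below -2.74 and MBOAT7 at or above 0.88 with every hairpin, and LPCAT3 goes from 0.94 and 1.06 with the controls to 0.26 and 0.29 with the PTK7 hairpins.

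For the genes that differed between the lines, the sequence around the annotated start site is given where the promoter set held it. It held none for LPCAT2, which had the widest gap, or for MBOAT1. LPCAT1 is thus the only printed gene higher in H2009. Windows of 300 bases (250 before to 50 after the annotated start) came from RefSeq on GRCh38.p14 for 5 of the 7 genes, and those of the 3 genes that passed between the lines and have a window are printed 5′ to 3′ on the gene's strand, with GC boxes (GGGCGG, or CCGCCC on the other strand) and CCAAT boxes (CCAAT, or ATTGG) in capitals. LPCAT1 lies on the minus strand at chr5:1523911-1524210, LPCAT3 on the minus strand at chr12:7018427-7018726 and MBOAT7 on the minus strand at chr19:54189531-54189830.
LPCAT1: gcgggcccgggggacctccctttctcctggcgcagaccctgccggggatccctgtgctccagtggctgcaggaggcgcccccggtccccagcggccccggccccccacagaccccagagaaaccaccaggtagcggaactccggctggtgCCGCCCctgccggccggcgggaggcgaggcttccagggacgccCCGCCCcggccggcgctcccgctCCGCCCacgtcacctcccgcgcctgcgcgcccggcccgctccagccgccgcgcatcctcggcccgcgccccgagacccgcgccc
LPCAT3: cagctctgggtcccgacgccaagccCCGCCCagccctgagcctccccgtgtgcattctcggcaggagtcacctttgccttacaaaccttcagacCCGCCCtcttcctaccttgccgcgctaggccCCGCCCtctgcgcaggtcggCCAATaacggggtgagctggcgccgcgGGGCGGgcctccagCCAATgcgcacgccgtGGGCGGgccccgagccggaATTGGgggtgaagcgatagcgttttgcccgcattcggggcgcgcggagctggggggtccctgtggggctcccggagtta
MBOAT7: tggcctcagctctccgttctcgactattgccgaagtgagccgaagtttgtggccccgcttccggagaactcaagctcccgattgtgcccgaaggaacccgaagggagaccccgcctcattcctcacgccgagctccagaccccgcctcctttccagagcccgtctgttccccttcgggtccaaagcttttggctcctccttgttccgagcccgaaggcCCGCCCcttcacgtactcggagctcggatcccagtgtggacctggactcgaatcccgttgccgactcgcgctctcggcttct

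The 3 windows are rich in G and C, at 80.0% for LPCAT1, 70.0% for LPCAT3 and 62.7% for MBOAT7, where the median over all 35116 windows of the table was 58.7%. LPCAT1, higher in H2009, holds 3 GC boxes and 0 CCAAT boxes. LPCAT3 and MBOAT7, higher in H1299, differ from each other, with 5 GC boxes and 3 CCAAT boxes in LPCAT3 and 1 GC box and 0 CCAAT boxes in MBOAT7. The windows of LPCAT4 and AGPAT2, at 79.3% and 77.3% G and C, hold 4 and 7 GC boxes and 0 CCAAT boxes. None of the 5 windows holds a TATA box (TATAAA, or TTTATA) or the E-box CACGTG. Of all windows 45.0% hold a GC box, 34.6% a CCAAT box, 11.5% a TATA box and 7.26% an E-box, so these letters are common, and a match is a description and not a binding site.

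The genes whose profile over the 8 arrays was most like that of MBOAT1 were PIK3CB, DSC2, IL1R1, MOV10 and GALNT1. Likeness was the root mean square difference of log2 values after the mean of each line was removed, and it was 0.13 for PIK3CB, a catalytic subunit of phosphoinositide 3-kinase, and 0.15 for the desmosomal cadherin DSC2. It was 0.29 for the interleukin-1 receptor IL1R1, 0.31 for the RNA helicase MOV10 and 0.32 for the glycosyltransferase GALNT1. The median over all other genes was 0.77. The swing of MBOAT1 itself sets most of this distance, so a gene that hardly changed also lies near that median. A distance near it thus says little about likeness. The nearest acyltransferase of the list, LPCAT3, stood at 0.69, little below that median. Its PTK7 minus control difference in H2009 was 0.20, where that of MBOAT1 was -1.39.

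These 5 genes were read on the same arrays and controls as MBOAT1, so their differences carry no separate support. PTK7 minus control was -1.35 in H1299 and -1.29 in H2009 for PIK3CB, and -1.37 and -1.45 for DSC2. It was -0.91 and -1.84 for IL1R1, lower in H2009, and -1.01 and -1.07 for MOV10. GALNT1 had -1.41 and -1.31, with PTK7-1 in H2009 nearest to the controls.

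**Figure D4:**
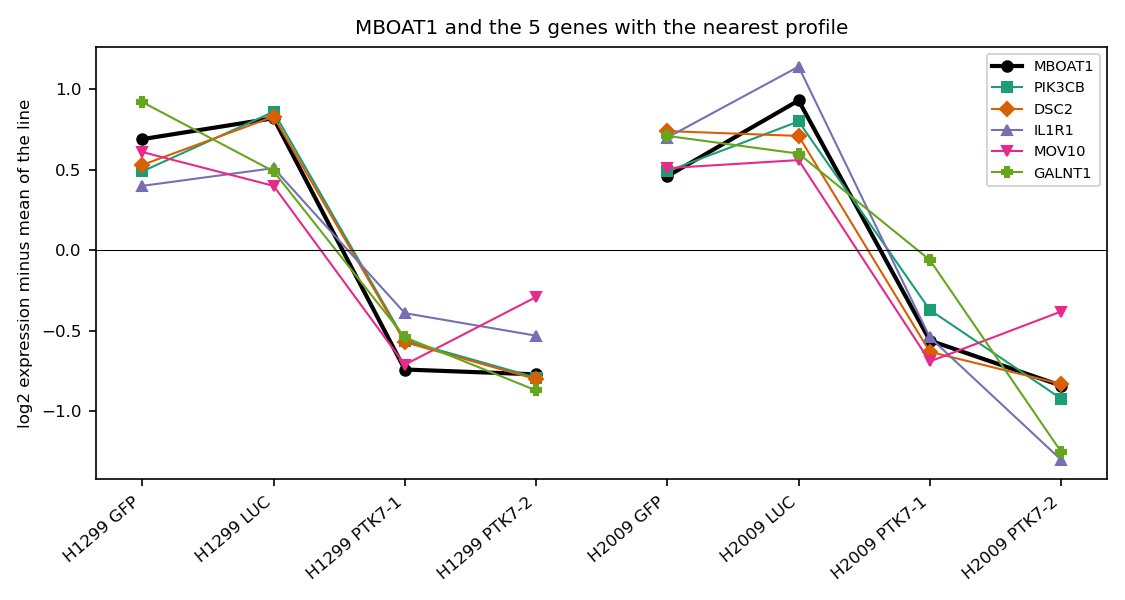
Log2 expression minus the mean of the line (vertical axis) of MBOAT1 and the 5 genes with the nearest profile on each of the 8 arrays (horizontal axis). All 6 genes lie above 0 on the 4 control arrays and below 0 on the 4 PTK7 arrays, with MBOAT1 from 0.46 to 0.93 on the former and from -0.84 to -0.56 on the latter.

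The rest of the phospholipid and acyl chain pathway was read from 6 lists with 75 genes, of which 69 were measured. Averaged over the lines, 0 of the 69 passed the limma threshold, with 0.182 as the smallest adjusted p. Of them 15 had an unadjusted p under 0.05, a larger share than the 9.88% of all genes. Under PTK7 hairpins 48 of the 69 were higher and 21 lower, also a larger share higher than the 55.8% of all genes. The lists were not matched to all genes in level and no set test was run, so both shares are a description. Their median difference was 0.08, beside 0.02 over all genes.

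Among the 11 other glycerolipid acyltransferases, LCLAT1, which acylates lysocardiolipin and lysophosphatidylinositol, had an averaged difference of -0.53 ± 0.11, from 8.84 and 8.95 to 8.27 and 8.29 in H1299 and from 9.44 and 9.50 to 8.83 and 9.21 in H2009. GPAT3, which starts glycerolipid synthesis on glycerol-3-phosphate, had 0.66 ± 0.13, from 7.94 and 7.62 to 8.45 and 8.28 in H1299 and from 8.87 and 8.61 to 9.66 and 9.28 in H2009. The PTK7 arrays of both genes lay beyond the controls in each line, low for LCLAT1 and high for GPAT3, and neither passed (limma adjusted p = 0.191 and 0.194). In the blocked fit GPAT3 passed at 0.0465 and LCLAT1 did not at 0.0736.

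Of the 6 other MBOAT enzymes measured, the sterol acyltransferase SOAT1 had 1.01 ± 0.46 and the diacylglycerol acyltransferase DGAT1 0.18 ± 0.12. SOAT1 read 6.48 with GFP and 8.78 with LUC in H1299, so its controls lay further apart than its group means, which differed by 1.34. Of the 13 Kennedy pathway genes, SELENOI, which forms phosphatidylethanolamine, had 0.29 ± 0.09 and CHPT1, which forms phosphatidylcholine, had -0.22 ± 0.08. Of the 9 genes of the CDP-diacylglycerol branch, the phosphatidate phosphatase LPIN2 had 0.48 ± 0.18 and the CDP-diacylglycerol synthase CDS1 had -0.58 ± 0.23. None of these 6 genes passed, with or without the hairpin as a block.

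Phospholipases A supply the substrates of MBOAT1 and its relatives. Among the 15 phospholipases A and lysophospholipases measured, PLA2G15 had 0.41 ± 0.10 and DDHD2 had -0.88 ± 0.23. DDHD2 read 8.94, 8.84, 8.33 and 7.33 in H1299 and 8.24, 8.10, 7.78 and 7.18 in H2009 with GFP, LUC, PTK7-1 and PTK7-2, the lowest with PTK7-2 in both lines. Among 15 acyl-CoA synthetases, elongases and desaturases, which supply the acyl chains, the elongases ELOVL4 and ELOVL5 had 0.69 ± 0.12 and 0.23 ± 0.08. DDHD2 and ELOVL4 missed the threshold (limma adjusted p = 0.279 and 0.182) and passed with the hairpin as a block (0.0421 and 0.0465). The block takes the spread between hairpins out of the error, so these calls refer to these 4 hairpins only.

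Between the lines under control hairpins, 25 of the 69 pathway genes passed, 13 higher in H1299 and 12 higher in H2009, which is 36.2% beside 24.8% of all genes. They were 6 of 11 other glycerolipid acyltransferases, 1 of 6 other MBOAT enzymes, 5 of 13 Kennedy pathway genes, 5 of 9 of the CDP-diacylglycerol branch, 3 of 15 phospholipases and 5 of 15 acyl-CoA synthetases, elongases and desaturases. The share of all genes includes dim genes, and the lists were not matched to them in level, so 36.2% beside 24.8% is a description. The genes named next were chosen after their values were seen, for the size of the gap. PLA2G4A, the cytosolic phospholipase A2 that releases arachidonate, was at 3.07 and 3.10 in the H1299 controls and 7.88 and 7.53 in the H2009 controls, and the acyl-CoA synthetase ACSL5 was at 3.86 and 4.14 and at 7.83 and 7.77. Both were higher in H2009 (limma adjusted p = 2.27e-05 and 5.29e-05), but their H1299 readings lay in the range of the leukocyte and endothelial markers on the same arrays, 2.85 to 4.43, so the size of the gap is not a measured fold. CDS1 differed by -3.13 ± 0.32 (limma adjusted p = 0.000588), higher in H2009 like LPCAT1 and LPCAT2. The elongase ELOVL2 went the other way by 4.71 ± 0.49 (limma adjusted p = 0.000638). The lower side of these gaps also lay below the median gene, at 5.79 and 6.25 for CDS1 in the H1299 controls. For ELOVL2 it was at 5.26 and 5.12 in the H2009 controls, so both sizes are differences of readings too.

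**Figure D5:**
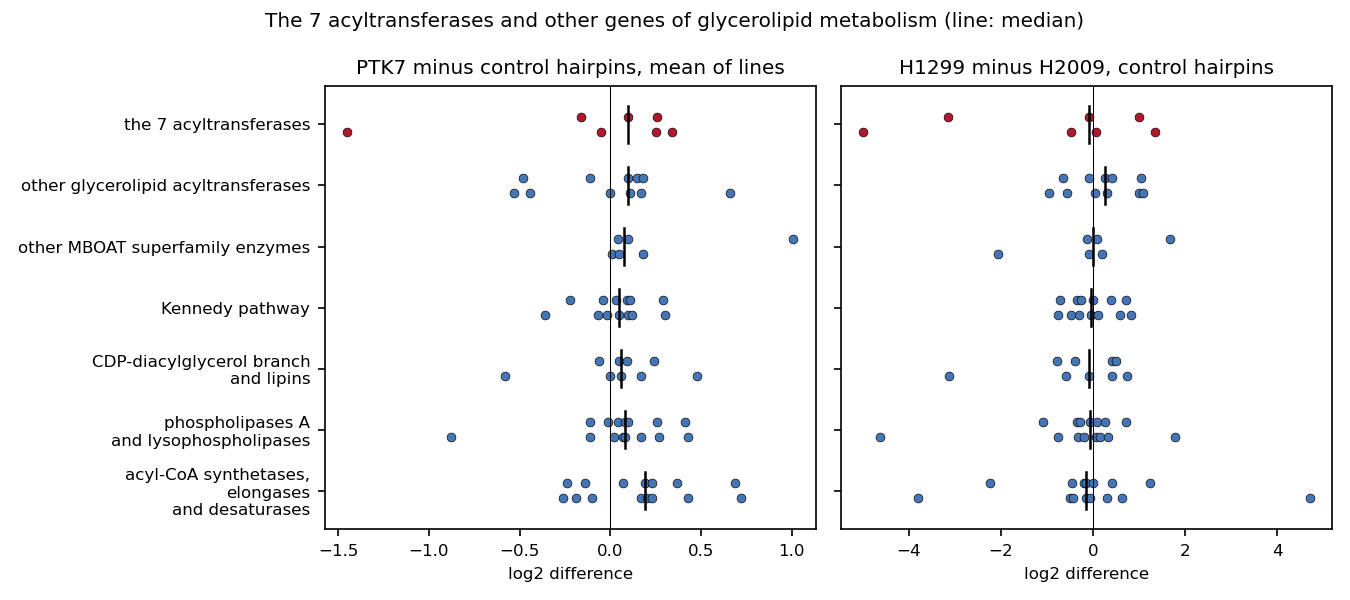
Log2 differences (horizontal axis) of the 7 acyltransferases and the 6 lists of other pathway genes, PTK7 minus control averaged over the lines on the left and H1299 minus H2009 under control hairpins on the right, with a point per gene and a line at the median. MBOAT1 at -1.45 is the lowest point on the left, and the far left points on the right panel include LPCAT2, PLA2G4A and ACSL5, whose H1299 readings lie below the median gene and, for PLA2G4A and ACSL5, at the level of leukocyte and endothelial markers, so their distances are differences of readings and not measured folds.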

How the data were processed

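Total RNA of 2 lines was measured on 8 arrays, 4 per line. The deposited values are log2 expression per probe set, which the authors produced by RMA (R 2.14.0), as the submitters' processing notes list. The method subtracts background, equalises the arrays' distributions, combines probes and compresses differences of dim genes. Of 32321 probe sets, 19158 had a single gene symbol, 1388 several and 11775 were not listed; the brightest of each gene was kept (18404 genes). The number of arrays limits the precision.

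The 4 group means were fitted to all 8 arrays in limma 3.58.1 (R 4.3.3), the spread was moderated by empirical Bayes, and p-values were adjusted over all genes by Benjamini-Hochberg, with 0.05 as threshold. Contrasts between hairpins used terms for hairpin and line. Both lines received the same hairpins, per the labels, and same-hairpin arrays deviated together from their group means (r between the lines 0.23 for control and 0.407 for PTK7 hairpins), so a fit with the hairpin as a replicate block was run beside the main one. Other alternatives were quantile normalization, median centring, averaging a gene's probe sets, a trended prior, and leaving out the dimmest 40% of genes or each array. The main fit was also run on simulated data with independent noise for each array. Such data lack the shared deviations of same-hairpin arrays, so they cannot decide between the main and the blocked fit.

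The genes, lists and tests were chosen with earlier results of these data known. Named were the listed acyltransferases, PTK7, up to 2 genes per pathway list with the smallest unadjusted p for the averaged difference, and the 5 genes nearest to MBOAT1. Besides these, PLA2G4A, ACSL5 and ELOVL2 were named after their values were seen, for the size of their gap between the lines. Promoter windows came from RefSeq (GRCh38.p14). No pair of arrays held identical values. Python 3.11.15 with matplotlib 3.10.9 drew the figures.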

Additional observations from a re-analysis of the deposited data

Results flagged for a closer look

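LPCAT3 differed between the lines in direction: the PTK7 minus control difference in H1299 minus that in H2009 was -0.72, with both PTK7 arrays below both controls in H1299 and above both in H2009. The test of this difference over all genes did not pass (limma adjusted p = 0.880), and the separation in H2009 was 0.02.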

How the results depend on the processing

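Alternatives were run for the knockdown differences and the control difference between the lines of all 7 acyltransferases, and elsewhere for MBOAT1 (all comparisons), MBOAT7 (PTK7 hairpins) and LPCAT1, LPCAT3 and LPCAT4 (lines in knockdown). Of these 490 values 480 kept direction and side of the threshold, though not always size; 5 reversed, 3 lost a call (MBOAT7 between the lines, 1.22 to 1.49 with each array left out) and 2 untested values moved by more than the SD (MBOAT1 in H2009, -1.63 to -1.16). With an array left out, values that did not pass ran from 0.11 to 0.73 for LPCAT2 in H1299 and 0.09 to 0.42 in H2009 (0.19 to 0.49 averaged), from 0.01 to 0.48 for MBOAT7 averaged, from 0.02 to 0.18 for LPCAT1 in H2009, and from 0.07 to 0.33 for LPCAT3 in H2009. The reversals came from left-out arrays: AGPAT2 between the lines ran from -0.02 to 0.17, LPCAT4 in H1299 from -0.17 to 0, MBOAT7 in H1299 from -0.27 to 0.67, and the MBOAT1 difference between the lines in knockdown from -0.35 to 0.12. No acyltransferase call changed under another setting. Many of the 490 values could not change direction. Each gene has a single probe set, so averaging probe sets returned the same value. The block, the trended prior and the filter for dim genes alter the error or the adjustment, and not the difference. Leaving out an array outside a comparison also leaves its difference unchanged.

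With the hairpin as a replicate block, 149 genes passed for the averaged knockdown difference, 4 in H1299 and 1 for the difference between the lines, and 3 other pathway genes passed for the average (DDHD2, ELOVL4 and GPAT3). A trended prior gave 3 genes for the average and 1 between the lines in knockdown, and leaving out the dimmest 40% of genes gave 0 in H1299. With an array left out, 0 to 5 genes passed for the average, 0 to 8 in H1299, 0 to 3 for the difference between the lines in knockdown, 0 to 943 between the PTK7 hairpins (0 without PTK7-1 in H1299), 2196 to 5298 between the lines under controls, and 11 to 28 of the other pathway genes there; in the last 2 the lowest counts came without an H2009 control array. The cause was not tested. With 2 arrays a group, each from another hairpin, small differences are beyond what these arrays resolve.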
